A study of Rattus norvegicus with 7 samples.

Results

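DNA repair genes were compared between crypts of the proximal and the distal colon of the rat, from a list of 46 symbols that covers the main repair pathways and includes Mgmt. The symbols were looked up in a table of 16492 gene rows, where 39 were found. Of the remaining 7, Nth1 is an older name of Nthl1, which was found, and Msh6, Ercc4, Ddb1, Ddb2, Atr and Prkdc were not analysed here. Colon crypts are epithelial pits, and RNA was extracted from their cells after isolation from either end of the colon. The animals were Sprague Dawley rats, an outbred strain, 14 weeks old, and the labels name no treatment. Material from 7 rats was pooled into 1 library per region, so the differences below compare 2 libraries and have no replicate check. The series title names region-specific histone marks and proto-oncogene expression as its subject, and the 5 chromatin immunoprecipitation libraries of the series were not analysed here.

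DNA repair is divided by the kind of lesion. Direct reversal takes an alkyl group off a base without cutting the strand, and Mgmt, the methylguanine methyltransferase, does so by moving the group from guanine onto its own cysteine, which uses the protein up. A methylguanine that stays in the DNA pairs with thymine, and mismatch repair then acts on that pair. Base excision repair replaces single damaged bases, nucleotide excision repair removes bulky lesions with a stretch of the strand, and homologous recombination and end joining mend double-strand breaks, with kinases such as Atm signalling the damage. In human colorectal tumours Mgmt is a well-known target of silencing by methylation of CG dinucleotides at its promoter.

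The promoters of the 3 direct-reversal members are shown because Mgmt was the member furthest apart between the regions and Alkbh2 and Alkbh3 share its pathway. Each runs 5′ to 3′ from 250 bases before to 50 bases after the start of the gene as RefSeq places it in the GRCr8 build, and capitals mark CG dinucleotides. Mgmt lies at chr1:201140582-201140881 on the plus strand, Alkbh2 at chr12:48156604-48156903 on the plus strand and Alkbh3 at chr3:100427232-100427531 on the minus strand.
Mgmt: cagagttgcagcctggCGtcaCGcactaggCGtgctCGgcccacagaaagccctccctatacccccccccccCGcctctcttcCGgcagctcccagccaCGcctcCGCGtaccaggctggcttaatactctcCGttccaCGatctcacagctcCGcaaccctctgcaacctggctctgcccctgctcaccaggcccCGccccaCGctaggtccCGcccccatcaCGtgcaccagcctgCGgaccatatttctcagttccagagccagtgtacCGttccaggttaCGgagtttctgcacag
Alkbh2: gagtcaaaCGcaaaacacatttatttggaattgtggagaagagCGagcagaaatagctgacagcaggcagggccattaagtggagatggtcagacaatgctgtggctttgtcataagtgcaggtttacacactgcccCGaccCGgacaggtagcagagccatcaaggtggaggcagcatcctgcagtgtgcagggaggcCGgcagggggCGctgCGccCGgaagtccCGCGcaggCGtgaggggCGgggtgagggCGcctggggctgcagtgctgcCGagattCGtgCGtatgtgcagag
Alkbh3: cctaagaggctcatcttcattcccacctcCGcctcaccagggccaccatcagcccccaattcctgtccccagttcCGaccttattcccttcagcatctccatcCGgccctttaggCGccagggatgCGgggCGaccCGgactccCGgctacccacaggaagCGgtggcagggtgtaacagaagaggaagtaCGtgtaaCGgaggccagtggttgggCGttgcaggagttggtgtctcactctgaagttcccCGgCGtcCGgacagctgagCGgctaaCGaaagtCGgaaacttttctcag

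The Mgmt window held 19 CG dinucleotides, that of Alkbh2 16 and that of Alkbh3 18. At least 19 were present in 36.4% of the 19005 protein-coding promoters of the same length. Promoters of 34 of the 39 members could be matched (Mre11a under its current name Mre11), and they held a median of 21.5 CG dinucleotides, from 5 in Mre11a to 37 in Parp1, against a median of 12 over all promoters. The letters GGGCGG, known as a GC box, were found on either strand in 23 of the 34 (67.6%) and in 43.1% of all promoters, with Mgmt and Alkbh2 among the holders and Alkbh3 not. CCAAT was found on either strand in 11 (32.4%) against 38.4% of all promoters, and TATAAA in 0 against 13.1%. GGGCGG itself holds a CG, so this count and the CG count overlap. The 19005 promoters were not limited to genes measured in these libraries, whereas nearly all members found were measured. None of these contrasts is therefore shown to be particular to repair genes. No methylation or chromatin data were set beside these windows.

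Nearly all repair genes had close values in the 2 libraries, and Mgmt was the exception. Levels were taken as FPKM, a read count divided by the length of the transcript and the size of the library. Where 2 values of a gene follow each other the proximal one comes first. Mgmt stood at 4.18 FPKM proximally and 16.1 FPKM distally, a ratio of 3.85. The other 36 members with at least 1 FPKM in 1 library differed by less than 1.5-fold on the log2(FPKM + 1) scale, a scale that understates differences of low genes. A log2 ratio in what follows is the distal over the proximal value on that scale. Counting only these 37 members, 1 stood higher distally by 2-fold or more, against 3.71% of all 9847 measured genes, and 0 proximally, against 3.91%. With 1 of 37 the members' share was close to this background. The authors' deposited table called 1 of the 38 members it tested, Mgmt, as higher in the distal library, where it called 2.73% of its 10100 tested rows, and 0 as higher in the proximal library, where it called 2.69%. An unadjusted p under 0.05 in the authors' deposited table was held by 1 member of 38, again Mgmt, and by 12.3% of tested rows.

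**Figure D1:**
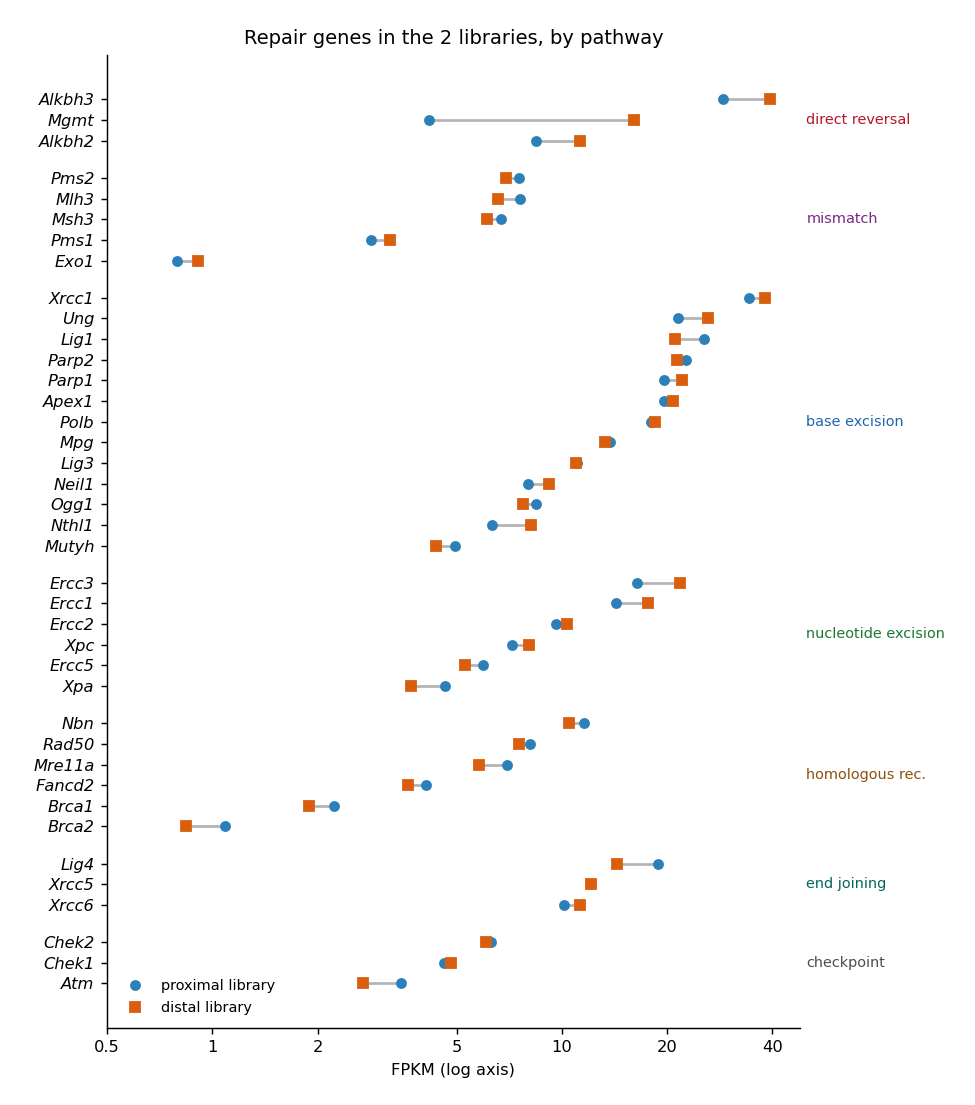
FPKM of the 39 repair members found in the table, on a log axis, with circles for the proximal and squares for the distal library and grey lines joining them. The Mgmt values of 4.18 and 16.1 FPKM are the furthest apart, and most other pairs nearly touch.

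A larger share of members than of all measured genes had close values. On the log2(FPKM + 1) scale 28 of the 37 (75.7%) were less than 1.2-fold apart, against 54.0% of all measured genes. By plain FPKM ratios, with no pseudocount, these were 25 (67.6%) and 50.0%. On the log2(FPKM + 1) scale 36 were less than 1.5-fold apart, where the share over all measured genes was 82.7%. Their median log2 ratio was -0.0082, against 0.09 over all measured genes, and 20 of the 37 (54.1%) had a lower value in the distal library, against 38.6% of all measured genes. This lean was not seen in the 99 other measured repair genes, of which 38 were lower and 61 higher distally, with a median log2 ratio of 0.11. Repair genes were of low to middling abundance: the median member had a higher mean FPKM than 34.1% of measured genes. These shares were not tested, since each region had 1 library.

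All 3 direct-reversal members had higher values in the distal library, as did 61.4% of all measured genes, and for Alkbh2 and Alkbh3 the difference lay within the deposited error. On the rn4 build used for the table, Mgmt occupies 196629366 to 196866937 of chromosome 1, a span of 238 kb, and no other gene of the table has the same locus. The authors' deposited table gave Mgmt a log2 fold change of 1.95 and a q of 0.0374. The statistic given there corresponds to a standard error of 0.63 on the log2 scale and thus to a 95% interval of 0.72 to 3.17, or 1.65-fold to 9.01-fold. This error comes from the model behind that table and does not measure variation between rats. A smaller q than that of Mgmt was held by 500 of the 548 rows called there, which reach a q of 0.0495. Among all measured genes 130 (1.32%) had a log2 ratio at least as high as the 1.72 of Mgmt.

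Alkbh2 and Alkbh3 encode dioxygenases that remove methyl groups from adenine and cytosine by oxidation. Alkbh3 stood at 28.9 and 39.4 FPKM, and Alkbh2 at 8.45 and 11.2 FPKM. The ratios of 1.36 and 1.33 were within the error of the authors' deposited table, where the 95% intervals ran from 0.86-fold to 2.16-fold for Alkbh3 and from 0.65-fold to 2.72-fold for Alkbh2. Of 4 further symbols tied to alkylation reversal, both that were found, Ascc1 and Ascc2, which encode partners of Alkbh3, were less than 1.5-fold apart.

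Those genes around Mgmt that could be compared did not share its difference, though most of them lie far from it. Within 1500 kb on either side the table analysed held 5 other genes. Ptpre, a receptor phosphatase gene 1326 kb from Mgmt, stood at 4.46 and 5.17 FPKM, and Clrn3, 1481 kb away, at 68.0 and 81.2 FPKM. Glrx3, a glutaredoxin gene 309 kb from Mgmt, stood at 38.1 and 40.8 FPKM. These 3 were less than 1.2-fold apart. Ebf3, the nearest at 60.5 kb, was listed at 0.0184 and 0 FPKM, which is too low to compare. Tcerg1l, 1107 kb away, was at 1.39 FPKM proximally and listed at 0 distally, the opposite direction to Mgmt, and the authors' deposited table called it.

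**Figure D2:**
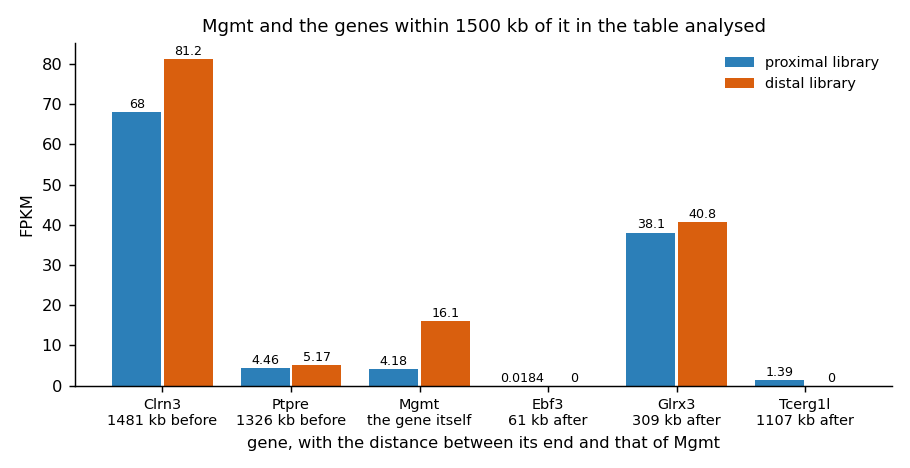
FPKM of Mgmt and of the 5 genes within 1500 kb of it in the order along the chromosome, with bars from 0 for the proximal (blue) and distal (orange) library and the distance to the nearer end of Mgmt in kb. Mgmt goes from 4.18 to 16.1 FPKM while Clrn3, Ptpre and Glrx3 differ by less than 1.2-fold.

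Mismatch repair members showed no difference between the libraries beyond the deposited error. Pms2, the endonuclease subunit of the main MutL complex, stood at 7.53 and 6.90 FPKM. Mlh3, another MutL subunit, stood at 7.58 and 6.55 FPKM, Msh3, which recognises small loops, at 6.69 and 6.12 FPKM, and Pms1 at 2.84 and 3.23 FPKM. The 4 had a median log2 ratio of -0.11, and 3 were lower in the distal library. Exo1, the exonuclease that removes the mismatched strand, was at 0.793 and 0.910 FPKM, under the minimum of 1 FPKM, and was not counted. Of 13 other genes of mismatch repair and its resynthesis step (Pcna and subunits of replication factor C, replication protein A and polymerase delta), all measured, none was 2-fold apart and none was called in the authors' deposited table, with a median log2 ratio of 0.17.

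Base excision repair had 12 measured members with a median log2 ratio of 0.06, 7 of them higher and 5 lower distally. Among the glycosylases, which cut out damaged bases, Ung, which removes uracil, was the most abundant, at 21.4 and 26.2 FPKM. Mpg, which removes alkylated purines and so meets the same class of damage as Mgmt, stood at 13.7 and 13.3 FPKM. Ogg1, for oxidised guanine, stood at 8.43 and 7.76 FPKM and Mutyh, for adenine opposite oxidised guanine, at 4.96 and 4.36 FPKM. Neil1 and Nthl1, for oxidised pyrimidines, stood at 8.01 and 9.20 FPKM and at 6.33 and 8.17 FPKM. The largest ratio of these 6 glycosylase genes was the 1.29 of Nthl1, for which the authors' deposited table implied 0.59-fold to 2.82-fold.

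Steps after the glycosylases were also level. Apex1, the endonuclease that cuts at the empty site, stood at 19.6 and 20.8 FPKM, and Polb, the polymerase that fills the gap, at 18.0 and 18.5 FPKM. The scaffold gene Xrcc1 had the highest mean of all members, at 34.2 and 38.1 FPKM, and its ligase partner Lig3 stood at 11.1 and 11.0 FPKM. The break sensors Parp1 and Parp2 stood at 19.7 and 22.0 FPKM and at 22.7 and 21.3 FPKM. Xrcc1 and Parp1 had the narrowest intervals among the members: from 0.74-fold to 1.66-fold and from 0.75-fold to 1.68-fold in the authors' deposited table. Lig1, the ligase of replication and long-patch repair, was at 25.5 and 21.1 FPKM, but its test is marked as failed in the authors' deposited table and it was left out of all counts of ratios and calls. Of 19 other symbols of this pathway, 15 were measured, none was 2-fold apart or called, and their median log2 ratio was 0.11.

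Nucleotide excision repair had 6 measured members, 4 higher and 2 lower distally, and their median log2 ratio was 0.12. Ercc3, a helicase subunit of the transcription factor TFIIH, stood at 16.4 and 21.8 FPKM, a ratio of 1.33 with 0.86-fold to 2.05-fold implied by the authors' deposited table. The damage sensor Xpc stood at 7.21 and 8.06 FPKM, and Ercc5, the endonuclease that cuts on the 3′ side, at 5.96 and 5.30 FPKM. The remaining members share their locus in the table with another gene, so reads of the neighbour may be part of their values. These are Ercc1, the partner of the endonuclease on the 5′ side, at 14.3 and 17.6 FPKM, the TFIIH helicase gene Ercc2, at 9.61 and 10.3 FPKM, and the damage-binding gene Xpa, at 4.63 and 3.71 FPKM. Xpa had the widest interval of all members, 0.18-fold to 3.53-fold in the authors' deposited table. Of 17 other symbols, which include the other TFIIH subunits, 14 were measured and 12 of these were higher distally. Their median log2 ratio was 0.19, with none 2-fold apart or called.

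All 6 members of homologous recombination and the Fanconi anaemia pathway had lower values in the distal library, with small differences. The median log2 ratio was -0.15 and the range -0.23 to -0.10, and any lower value was shown by 38.6% of measured genes. Brca2 reached the minimum of 1 FPKM only in the proximal library, so it could be counted only as lower distally. Rad50, Mre11a and Nbn, the subunits of the complex that binds broken ends, stood at 8.13 and 7.52 FPKM, 6.98 and 5.80 FPKM, and 11.5 and 10.5 FPKM. Brca1, which promotes resection and strand exchange, stood at 2.22 and 1.89 FPKM, Brca2, which acts in strand exchange, at 1.09 and 0.842 FPKM, and Fancd2, the hub of crosslink repair, at 4.09 and 3.64 FPKM. Each 95% interval of the authors' deposited table included 0 on the log2 scale and none of the 6 was called. The 23 other measured genes of this pathway were divided nearly evenly, 12 lower and 11 higher distally, with a median log2 ratio of -0.019. The widest difference among them, singled out after its value was seen, was that of Usp1, which removes ubiquitin from the Fanconi complex, at 54.1 and 34.4 FPKM, not called.

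End joining and the checkpoint kinases showed no member 1.5-fold apart. Lig4, the ligase of end joining, stood at 18.8 and 14.3 FPKM, 1.31-fold higher proximally. The authors' deposited table implied 0.50-fold to 1.16-fold for the distal over the proximal value. Xrcc5 and Xrcc6, which encode the Ku subunits that hold broken ends, stood at 12.1 and 12.1 FPKM and at 10.2 and 11.2 FPKM. Atm, the kinase that responds to double-strand breaks, stood at 3.47 and 2.69 FPKM, Chek1 at 4.60 and 4.83 FPKM and Chek2 at 6.29 and 6.05 FPKM. Of the other measured genes, 5 of end joining and 15 of the checkpoint, none was 2-fold apart or called. Wee1, a kinase that holds cells before mitosis, was the furthest apart of these 20 and was singled out after its value was seen, at 5.96 and 10.4 FPKM. Among 12 measured genes of translesion synthesis, in which polymerases copy past damage, none was 2-fold apart or called. Hltf, a ubiquitin ligase of that pathway, likewise singled out afterwards, came nearest, at 52.1 and 27.9 FPKM with a q of 0.0539 in the authors' deposited table.

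**Figure D3:**
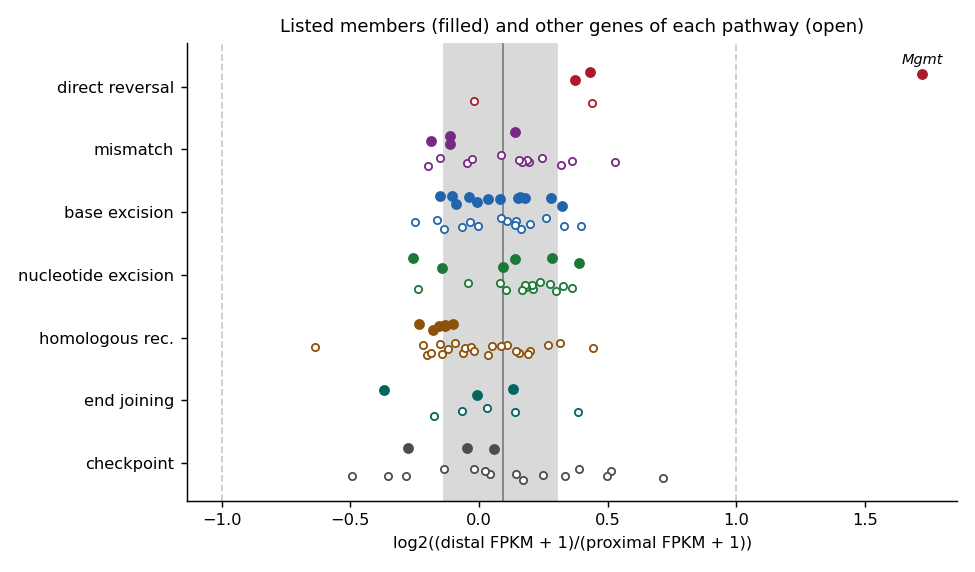
Log2 ratio of distal over proximal on the log2(FPKM + 1) scale for measured members (filled points) and other measured genes (open points) of the 7 pathways, 1 row per pathway. The grey band spans the 25th to 75th percentile of all measured genes (-0.14 to 0.30), the line is their median of 0.09, dashed lines mark 2-fold, and Mgmt at 1.72 is the only point beyond them.

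How small a difference the data could show is set by the deposited error. Across the 37 tested members other than Mgmt the standard error so derived ran from 0.30 for Parp1 to 1.09 for Xpa on the log2 scale, with a median of 0.41. Every one of these 37 intervals included 0, and the smallest q among them in the authors' deposited table was the 0.813 of Alkbh3. For 17 members the interval lay inside 2-fold in both directions, among them Xrcc1, Parp1, Parp2, Ung, Apex1, Polb, Lig3, Xrcc5, Xrcc6, Rad50, Nbn, Xpc, Ercc2 and Mlh3. For the other 20, such as Ogg1, Mutyh, Brca1, Brca2 and Xpa, a difference of 2-fold in at least 1 direction lay within the interval. For 0 members did it lie inside 1.5-fold in both directions. No source used here gives total read numbers.

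**Figure D4:**
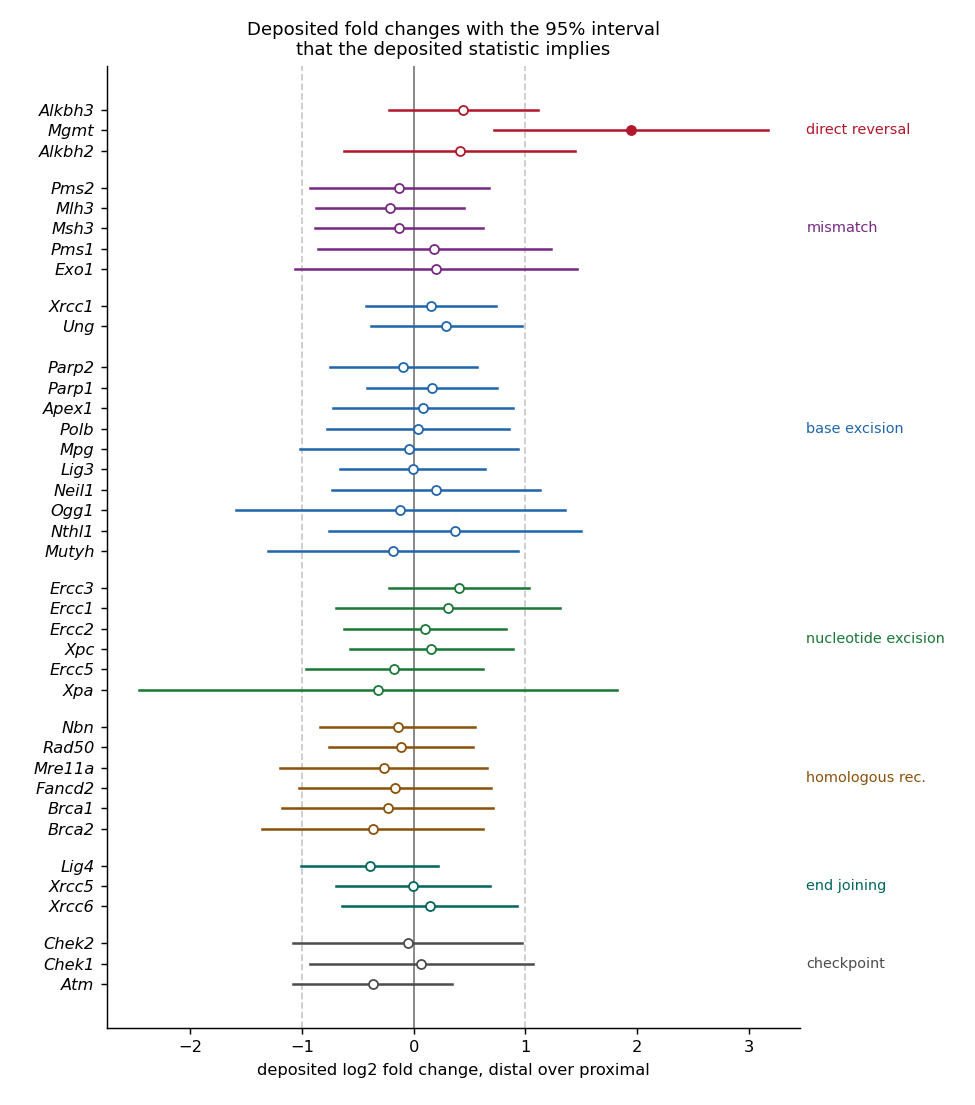
Log2 fold change of distal over proximal from the authors' deposited table for the 38 tested members, with the 95% interval that its test statistic implies, coloured by pathway. The filled point is the 1 called member, Mgmt (0.72 to 3.17), open points were not called, the solid line marks 0 and dashed lines mark 2-fold.

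Positions showed 4 pairs of members within 300 kb of each other on rn4. Ung and Alkbh2 lie 2.81 kb apart on chromosome 12, and RefSeq places them on opposite strands and starting away from each other. Their log2 ratios were 0.28 and 0.37. Ogg1 and Fancd2 on chromosome 4, 205 kb apart, had -0.11 and -0.13, Ercc1 and Ercc2 on chromosome 1, 174 kb apart, 0.29 and 0.09, and Parp2 and Apex1 on chromosome 15, 103 kb apart, -0.09 and 0.08.

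In a list of p53 targets and other genes of the response to DNA damage, 15 of 20 measured genes were higher distally, and the median log2 ratio was 0.16, where 61.4% of all measured genes were higher and their median was 0.09. Plk2, a stress-induced kinase, stood at 5.17 and 19.5 FPKM and was the 1 gene of this list that was at least 2-fold apart. Of all measured genes, 3.71% were at least 2-fold higher distally. Cdkn1a, the p21 inhibitor of cyclin-dependent kinases, stood at 53.5 and 105 FPKM, Btg2 at 82.4 and 146 FPKM and Pmaip1, which promotes cell death, at 8.35 and 14.96 FPKM. Of the list, Plk2 and Cdkn1a were called in the authors' deposited table, which called 2.73% of its tested rows as higher distally. Btg2 is also an immediate early gene. Immediate early genes, which respond within minutes to many stimuli, were higher distally in 15 of 17 measured cases. Their median log2 ratio was 0.73, and 6 were 2-fold or more higher, against 3.71% of all measured genes. Atf3, at 12.5 and 39.7 FPKM, was 1 of the 6. The part of immediate early genes in the Mgmt difference was not tested.

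Markers of cell types were set beside these results. All 15 epithelial markers found were measured in both libraries, 10 higher and 5 lower distally, where 61.4% of all measured genes were higher. The 15 markers summed to 25757 and 18582 FPKM. Car1, a carbonic anhydrase gene and the most abundant of them proximally, stood at 11729.6 and 1781 FPKM and was called as higher proximally in the authors' deposited table, while Clca4, at 17.8 and 33.2 FPKM, was called as higher distally. The drop of Car1 alone exceeded the drop of the sum. The keratin gene Krt8 stood at 2328 and 3436 FPKM, not called. Lymphocyte markers were lower distally in 17 of 18 measured cases (median log2 ratio -1.38), against 38.6% of all measured genes. The 22 that were found summed to 106 and 27.2 FPKM with 0 listed at 0 in either library. B-cell genes such as Cd79b (8.80 and 0.502 FPKM) and Ms4a1 (6.32 and 0.202 FPKM) were among them. Cd79b and Ms4a1 reached the minimum of 1 FPKM only proximally, so they could be counted only as lower distally. The 13 stroma and smooth muscle markers found summed to 23.5 and 18.1 FPKM, with 2 of them listed at 0 proximally and 4 distally, and 6 were measured, 3 higher and 3 lower distally. Des, the desmin gene of muscle, at 0.0398 and 2.91 FPKM, was called as higher distally in the authors' deposited table, and Pdgfrb, a growth factor receptor gene of pericytes and fibroblasts, at 2.50 and 0.410 FPKM, as higher proximally. Proliferation markers, of which 27 were measured, had a median log2 ratio of 0.13. Of the 27, 22 were higher and 5 lower distally, where 61.4% of all measured genes were higher. Only Tyms, at 42.9 and 17.7 FPKM, was at least 2-fold apart. Of all measured genes, 3.91% were at least 2-fold higher proximally. The part of these cell types in the lower values of the recombination members, or in the higher value of Mgmt, was not tested. In bulk libraries fewer cells of a type and less RNA per cell cannot be told apart.

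**Figure D5:**
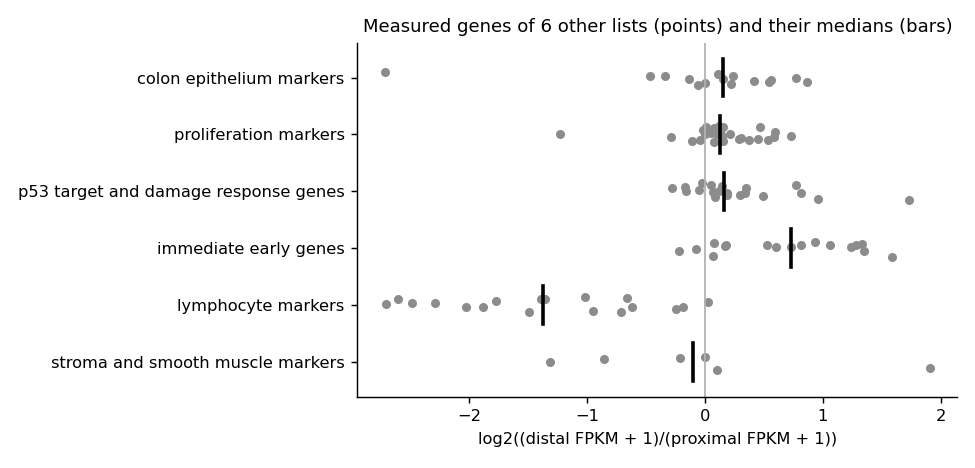
Log2 ratio of distal over proximal on the log2(FPKM + 1) scale for the measured genes (points) of 6 lists that hold no repair member, with the median of each list as a bar. Lymphocyte markers lie mostly below 0 (median -1.38) and immediate early genes mostly above it (median 0.73), while proliferation markers have a median of 0.13.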

How the data were processed

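In all 2 RNA libraries, 1 per region, were analysed. CASAVA, TopHat2 and the build rn4 are named for both in the submitters' processing notes, and no source used here names the program behind the table. The deposited values were taken as FPKM because they are not whole and carry no header unit. The deposited p-value equals the two-sided normal tail of the deposited statistic (a score with its own placeholder where a value is 0) to within 2.76e-06, so the deposited log2 fold change divided by it gave the implied standard error. Of 16492 rows, 22 with low data, 1 failed and 1 repeated were left out, which kept 16468 genes, 9847 of them with at least 1 FPKM in 1 library. Starts were taken to count from 0 and 1 was added, after which 1187 of 1188 loci of olfactory receptors, those under 1100 bases, had a length divisible by 3. Log2 ratios and the fold counts made from them used a pseudocount of 1 FPKM, while ratios of 2 FPKM values used none (Python 3.11.15, pandas 2.3.3). The code for the log2 ratios was run on simulated data with raised levels and large planted changes, which had to be found. That run checks the code only, not how genes of low level behave here. No test of the regions was made. Both values are given for every measured member, and deposited errors where a comparison needs them. The members and lists were chosen with earlier results of these data known, and some genes of the wider pathway lists are not reported here.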

Additional observations from a re-analysis of the deposited data

How the results depend on the processing

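Mgmt was the 1 repair member at least 2-fold apart under every alternative run: pseudocounts of 0.1 and 5 FPKM, no minimum, a minimum of 5 FPKM, both rescalings, without genes sharing a locus, at 1.5-fold, and with the failed row for Lig1 kept (chosen after seeing the data). Its log2 ratio was 1.92 and 1.201 with those pseudocounts, 1.63 with the distal library rescaled to a median log2 ratio of 0 and 1.56 with equal upper quartiles. With a deposited q under 0.005 in place of the deposited call, 0 members were called. The median over the members was 0.034 with a minimum of 5 FPKM (29 members), -0.10 and -0.16 under the rescalings to the median and the upper quartile, which move the median of all measured genes to 0 and -0.06, and negative under the others run. The recombination members, alternatives chosen after seeing the data, were lower in the distal library in 6 of 6 cases in all but the minimum of 5 FPKM, where 3 of 3 were. None of these settings could have reversed that count. A pseudocount keeps the sign of a ratio, both rescalings lowered the distal values, and the others only kept or left out whole genes. With a pseudocount of 5 FPKM the median log2 ratio of the recombination members was -0.071, and under the rescalings it was -0.22 and -0.27. A larger pseudocount shrinks every log2 ratio by its form, and the minimum of 5 FPKM takes the median over fewer members. With 1 library per region no replicate could be left out, and no setting tells differences between regions from differences between pools.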
